A study of Drosophila melanogaster with 48 samples.

Results

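The genes zpg, stet and nos were followed in testes of Drosophila melanogaster flies of the genotype bam-/-;hsBam. They were found by the protein names that the files give for each stop codon, and they are 3 of 13555 genes listed in the series. Flies of every group lacked bam, which spermatogonia need to stop dividing and become spermatocytes, and carried hsBam, a copy of bam under a heat-shock promoter, which is not restricted to germ cells. They were grown at 22 °C, put at 37 °C for 30 min as pupae and moved to 25 °C. Total lysate was taken at 0, 16, 24, 32, 48 and 72 h after this pulse. Polysome gradients were made at 24, 48 and 72 h and combined into 6 pools, which were free RNA, 40S, 60S, 80S (single ribosomes), 2-3 ribosomes and 4+ ribosomes. Each group had 2 libraries, giving 12 libraries of lysate and 36 of pools. The age of the animals at collection and recovery from the heat cannot be told apart from time after the pulse.

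All 3 genes act in the germ cells that precede the spermatocyte. The gene zpg encodes an innexin, a gap junction protein that couples germ cells to the somatic cyst cells around them, and germ cells need it to survive and differentiate. The gene stet encodes a rhomboid protease that germ cells use to release an EGF-like ligand, which the cyst cells receive through the EGF receptor and answer by enclosing the germ cells. The gene nos encodes a translational repressor that acts with Pumilio and keeps germline stem cells from differentiating. In the fly embryo and ovary the RNA of nos is itself repressed through its 3′ UTR, which makes its 3′ end and its place on ribosomes of interest.

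The libraries hold 3′ end tags, 1 tag for each RNA copied, so a read count follows the number of RNA ends and not gene length. Lysate libraries held 12041430 to 20668631 listed reads, and pool libraries 445049 to 9568651. Sites with fewer than 20 reads in lysate or 10 in pools are not listed, so "unlisted" below means under that minimum and not absent. In lysate 1 transcript, CG18628, took 36.5 and 34.8% of the reads at 0 h and 8.69 to 19.9% later. The 72 h 60S pool stood apart, with its replicates correlated at r = 0.344 over genes, against up to 0.972 in other pools and 0.846 to 0.981 in lysate. The lowest lysate value was that of 0 h, the reference of each lysate change against 0 h. Levels are given as CPM (counts-per-million of the listed reads, scaled between libraries by trimmed means of log ratios), as mean ± SD with n = 2. The labels speak of biological replicates without saying that they were crossed or dissected apart, so the p-values rest on a spread that may be technical. Reads of bam itself stood at 80.8 ± 0.82 CPM at 16 h, against 14.8 ± 0.69 at 0 h, and neither 16 h (log2 2.45, adjusted p = 0.328 by limma) nor any later time passed. A 3′ tag cannot tell RNA of hsBam from RNA of the bam locus.

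The gap junction gene zpg fell after the pulse and was still below its 0 h level at 72 h. In lysate its 2 libraries held 59.1 and 36.4 CPM at 0 h, 44.4 and 24.2 at 16 h, 18.3 and 12.7 at 24 h, 4.62 and 5.76 at 32 h, 7.90 and 8.42 at 48 h, and 16.7 and 12.6 at 72 h. In order of level, 0 h and 16 h overlapped, 24 h and 72 h overlapped, and 48 h lay above 32 h, the lowest time, without overlap. The level at 32 h was 5.19 ± 0.81 CPM, against 47.8 ± 16.0 at 0 h. That is a log2 change of -3.17 (95% interval -4.17 to -2.16, SE 0.44, adjusted p = 0.00289), or 8.98-fold lower. It ranked 16 from the bottom among 10339 genes tested. The gene also stood lower at 48 h (-2.51, SE 0.42, adjusted p = 0.00109) and at 72 h (-1.68, SE 0.40, adjusted p = 0.00771), both against 0 h. At 16 h (-0.50, adjusted p = 0.589) and 24 h (-1.62, adjusted p = 0.0876) it did not pass. Between 32 h and 72 h it rose, by 1.49 (SE 0.50, adjusted p = 0.0425).

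The protease gene stet was lower at 32 h than at 0 h, and by 72 h its libraries overlapped those of 0 h. Its libraries held 13.5 and 20.8 CPM at 0 h, 8.19 and 9.35 at 16 h, 3.18 and 3.53 at 24 h, 3.02 and unlisted at 32 h, 7.53 and 6.97 at 48 h, and 14.1 and 14.5 at 72 h. The 0 h and 72 h libraries overlapped, and the other times followed in the order 16, 48, 24 and 32 h with no overlap between neighbours. At 32 h the log2 change against 0 h was -3.47 (95% interval -4.69 to -2.25, SE 0.54, adjusted p = 0.00499), at rank 7 from the bottom. Since 1 of the 32 h libraries is unlisted, its size depends on the 10 reads entered there, and it was -2.97 with 20 reads and -4.99 with 1 read, past the threshold in both. At 72 h stet was higher than at 32 h by 3.24 (SE 0.54, adjusted p = 9.64e-04), and 72 h against 0 h gave -0.22 (95% interval -1.41 to 0.96, adjusted p = 0.746). Against 0 h, 16 h (-0.93, adjusted p = 0.527), 24 h (-2.30, adjusted p = 0.0910) and 48 h (-1.21, adjusted p = 0.0947) did not pass.

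The repressor gene nos passed the test at none of the times. Its libraries held 23.6 and 33.0 CPM at 0 h, 15.1 and 28.1 at 16 h, 35.0 and 21.5 at 24 h, 16.7 and 14.3 at 32 h, 19.0 and 19.1 at 48 h, and 27.5 and 18.7 at 72 h. In order of mean the times ran 0, 24, 72, 16, 48 and 32 h, and 48 h and 32 h were the only neighbours that did not overlap. The log2 changes against 0 h at 16, 24, 32, 48 and 72 h were -0.44, -0.03, -0.83, -0.54 and -0.28, with adjusted p of 0.589, 0.957, 0.208, 0.254 and 0.577 by limma. The interval at 32 h ran from -1.75 to 0.08, which still holds sizeable falls but lies above the whole interval of zpg at that time. The difference between the genes was not tested. With scaling by total reads, the 24 h and 48 h changes of nos turned to 0.46 and 0.19.

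**Figure D1:**
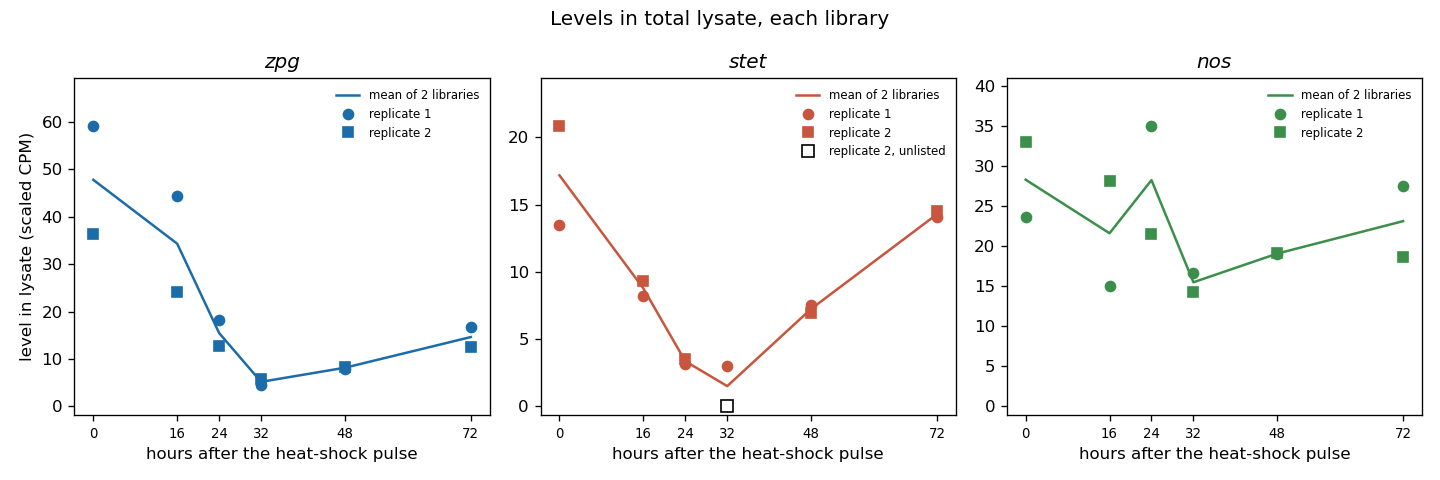
Level of zpg, stet and nos (scaled CPM, linear axis from 0) in each of the 12 lysate libraries by hours after the pulse, with the line through the mean of 2 libraries; the open square is the unlisted stet library at 32 h. Both zpg and stet are lowest at 32 h, stet reaches 14.1 and 14.5 CPM again at 72 h, and zpg stays at 16.7 and 12.6.

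**Figure D2:**
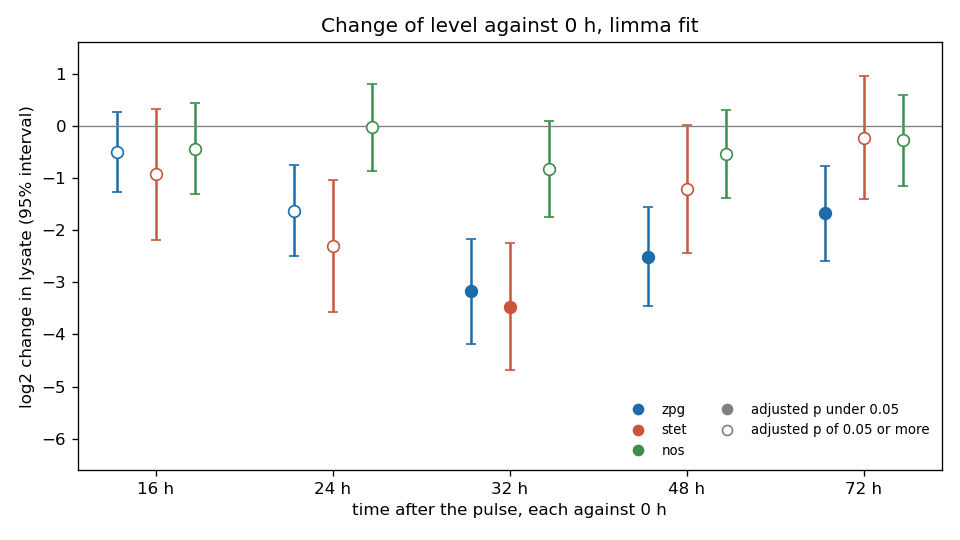
Log2 change of each gene in lysate at 5 times, each against 0 h, with 95% intervals of the limma fit; filled points have an adjusted p under 0.05. The filled points are zpg at 32, 48 and 72 h and stet at 32 h, and those of nos are all open.

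Over all 10339 genes tested in lysate, the share that passed against 0 h was 0.890, 1.63, 12.1, 46.0 and 47.0% at 16, 24, 32, 48 and 72 h, and 37.0% passed for 72 h against 32 h. Lower calls made up 0.803, 4.80, 13.8 and 11.4% of the genes at 24, 32, 48 and 72 h. Higher calls made up 7.28% at 32 h and 35.6% at 72 h, and 30.4% for 72 h against 32 h. Of the calls, 60.3% were higher at 32 h and 70.0% at 48 h, or 94.2 and 93.0% with scaling by total reads. For 72 h against 32 h the share was 81.9%, or 59.9% by total reads. That scaling moved the median log2 change of all genes at 32 h to 0.56, from -0.03, and gave -2.59 for zpg and -2.87 for stet, both still past the threshold. Relative to those medians the falls of zpg and stet were of like size under both scalings. Fitted on the 0 h and 32 h libraries alone, zpg had an adjusted p of 0.0955 and stet of 0.149. The fall of zpg at 72 h was lost without 72 h replicate 2 (-1.48, adjusted p = 0.0589), and its later rise was lost whichever of the 4 libraries compared was left out (1.28 to 1.68).

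Among markers of other cell types, those of spermatocytes rose over the same hours. The 17 spermatocyte markers, 15 of them listed in lysate, summed to 869 and 896 CPM at 32 h with none of the 15 unlisted in both libraries, against 125 and 130 CPM at 0 h, with comr, topi, can and sa unlisted in both. At 32 h 12 of the 15 were higher and 1 lower, beside 7.28 and 4.80% of all genes. The 9 cyst cell markers summed to 169 and 182 CPM at 32 h, against 96.0 and 172 at 0 h, which overlap, and 0 were higher and 1, zfh1, lower (log2 -1.68, adjusted p = 0.0157). On average their sum was highest at 24 h, with 301 and 268 CPM. At that time 2 passed as higher, beside 1.63% of all genes called in either direction. The 10 muscle markers summed to 1001 and 1256 CPM at 16 h and 1260 and 852 at 24 h, against 429 and 629 at 0 h. Their median changes were 1.45 and 1.16, with all 10 above 0 at both times. Only 1 passed at 16 h and 0 at 24 h, beside 0.890 and 1.63% of all genes called in either direction. Of 10 fat body and haemolymph markers 7 were listed and 6 tested, and they did not move as one. Adh held 1799 and 2013 CPM at 16 h, against 103 and 378 at 0 h, while PPO1 held 2.60 CPM and unlisted at 16 h, against 97.2 and 76.0 at 0 h. At 32 h 0 of the 6 were higher and 2, PPO1 and PPO2, lower. In bulk testes, fewer early germ cells and less RNA of a gene per cell cannot be told apart. The part of these shifts in the changes of zpg and stet was not tested.

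Of 28 genes on a list of early germ cell genes, zpg, stet and nos among them, 25 were listed in lysate and 23 tested. At 32 h 3 were lower, 2 of them zpg and stet, and 0 higher, beside 4.80% of all genes lower and 7.28% higher, so the count of the other genes was near the background. The other one was CycE, the cyclin of entry into S phase, at 8.16 ± 2.14 CPM at 32 h and 68.8 ± 15.2 at 0 h (log2 -3.07, adjusted p = 5.91e-04). It had fallen by 24 h (-2.29, adjusted p = 0.00796) and, like stet, was higher at 72 h than at 32 h (2.65, adjusted p = 1.13e-04). At 48 h 6 of the 23 were lower, zpg among them, and 2 higher, beside 13.8 and 32.2% of all genes. At 72 h 3 were lower and 0 higher, beside 11.4 and 35.6%, namely zpg, put, a BMP receptor gene (-0.99), and alpha-Spec, a spectrin gene (-0.95). The median of the 23 was -0.45, -0.54 and -0.40 at 32, 48 and 72 h, beside -0.03, 0.43 and 0.46 over all genes. In the mean of the 6 gradient pools, at 48 h against 24 h, 11 of 26 tested were lower, zpg and nos among them, and 1 higher. Over all genes the shares were 11.0 and 31.4%, and this comparison was chosen after the values were seen. It took every pool library as independent, though pools of 1 replicate and time may share a gradient.

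Within the innexin family, members other than zpg went both ways. Of 8 genes 7 were tested, and at 72 h against 0 h 3 were lower, zpg among them, and 2 higher, beside 11.4 and 35.6% of all genes. Inx2 and Inx3, innexins used by somatic cells, were modestly lower at 72 h, with 94.0 ± 1.09 CPM against 154 ± 22.4 at 0 h for Inx2 (log2 -0.70, adjusted p = 0.00800) and 41.5 ± 3.62 CPM against 75.3 ± 10.5 for Inx3 (-0.85, adjusted p = 0.00837). Inx3 had passed at 32 h (-0.76, adjusted p = 0.0453), when zpg was at its lowest. Inx5 and Inx6 were unlisted in both libraries at 0, 16 and 24 h and reached 35.9 ± 5.37 and 8.91 ± 0.96 CPM at 72 h (adjusted p = 4.19e-08 and 1.46e-04). Inx5 passed already at 32 h with 1.96 ± 0.05 CPM (adjusted p = 0.0204 by limma). The listing minimum at 0 h equals 1.56 and 1.69 CPM, so this call depends on the 10 reads entered for unlisted libraries. The sizes of the Inx5 and Inx6 changes at 72 h depend on them too.

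Of 25 genes of the EGF receptor pathway around stet 22 were tested, and at 32 h 2, stet and pnt, were lower and 0 higher, which is near the 4.80 and 7.28% of all genes. The gene pnt, an ETS transcription factor that acts at the end of the pathway, was unlisted in both 32 h libraries and had 5.50 ± 3.25 CPM at 0 h (adjusted p = 0.0170). Like stet it stood higher at 72 h, with 9.24 ± 0.70 CPM (adjusted p = 6.73e-04 against 32 h). The ligand gene spi did not pass at 32 h, with 99.9 ± 4.23 CPM against 159 ± 57.0 at 0 h. At 48 h 4 were lower and 0 higher, beside 13.8 and 32.2% of all genes. At 72 h 5 were lower and 0 higher, beside 11.4 and 35.6% of all genes. Among the lower were grk, a ligand gene, aos, a secreted inhibitor (log2 -1.60), Sos, the exchange factor for Ras (-1.10), and phl, the Raf kinase (-1.59). The gene grk was unlisted in both 72 h libraries, so, as for pnt at 32 h, the size of its change depends on the 10 reads entered. The median of the 22 was -0.03 at 32 h, equal to that of all genes, and -0.20 and -0.21 at 48 and 72 h, beside 0.43 and 0.46.

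Of 22 genes that act with Nanos or on nos RNA, 19 were tested, and at 32 h 1 was higher and 1 lower, a count near the background of 7.28 and 4.80%. The higher was glo, which in the ovary binds the nos 3′ UTR and represses it (log2 1.29, adjusted p = 0.0419). The lower was CycB, the mitotic cyclin, whose RNA Nanos and Pumilio repress in embryonic germ cells (-2.45, adjusted p = 0.0213), and which was higher at 72 h than at 0 h (3.29, adjusted p = 8.14e-05). At 48 h 3 were higher and 6 lower, beside 32.2 and 13.8% of all genes. At 72 h 3 were higher and 1 lower, beside 35.6 and 11.4%. Those of 72 h were CycB, the deadenylase gene twin (2.38), orb, a CPEB gene (2.04), and, as the lower, the Piwi-family gene aub (-1.69). The Pumilio gene pum did not pass at 32 h, with 60.5 ± 3.79 CPM against 91.4 ± 2.71 at 0 h.

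By their profiles over the 12 lysate libraries, the genes had different neighbours among 7440 genes listed in at least 10 of them. The likeness was Pearson's r of log2 CPM, and the libraries share their depth and scaling. Nearest to zpg were mtSSB (r = 0.959), which binds single-stranded mitochondrial DNA, Mcm6 (0.958), a subunit of the replicative helicase, CG15877 (0.957), NHP2 (0.957), a protein of small nucleolar RNPs, and CG2118 (0.956). Nearest to stet were the thymidylate synthase gene Ts (0.971), CG10336 (0.932), kuk (0.912), which encodes a nuclear envelope protein, CycE (0.901) and the fibrillarin gene Fib (0.9002). Nearest to nos were cno (0.915), the junction protein Canoe, drk (0.877), an adaptor of the EGF receptor, His2Av (0.874), a histone variant, CG31145 (0.805) and CG6959 (0.799). Ts fell and came back in the way of stet, with log2 differences of -3.23 at 32 h and 0.25 at 72 h against 0 h, while mtSSB stayed down at 72 h (-1.50, after -2.71 at 32 h). Among the 3 genes themselves r was 0.628 for zpg and stet, 0.465 for zpg and nos and 0.450 for stet and nos.

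The gradient pools gave the same genes in other libraries at 24, 48 and 72 h. In them zpg was listed in 33 of 36 libraries, stet in 24 and nos in 34. All 3 were unlisted in both 72 h 60S libraries, apart from stet in replicate 1, and replicate 2 of that pool is the shallowest of the series. The numbers of genes called between pools rest on this library: without it 1704, 2329 and 4201 passed for 4+ against free at 24, 48 and 72 h, against 698, 1169 and 2870 with it, and 1242, 863 and 2249 for 4+ against 80S, against 347, 286 and 709 with it. Averaged over the 6 pools, a comparison chosen after the values were seen, zpg was lower at 48 h than at 24 h (log2 -1.41, SE 0.40, adjusted p = 0.00574), where 42.4% of 10777 genes tested passed. The gene nos was also lower (-0.82, SE 0.24, adjusted p = 0.00598), and stet did not pass (-0.08, adjusted p = 0.872). Both calls held with each of the 24 libraries left out in turn. In these averages the fit took every pool library as independent. Pools of 1 replicate and time may be cuts of 1 gradient, so the p-values may be too small. Lysate was compared with 0 h and not with 24 h, so the values do not stand for the same interval.

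At 72 h the pools held more stet than at 48 h (log2 2.56, SE 0.35, adjusted p = 7.15e-07), and 39.8% of genes passed in that comparison, 23.7% as higher. The sum over the 6 pools was 82.8 and 100.6 CPM at 72 h and 20.1 and 5.33 CPM at 48 h in replicates 1 and 2. The rise was seen in all 24 fits with 1 library left out (2.28 to 2.76). For zpg the change was 0.88 (adjusted p = 0.0905) and for nos -0.32 (adjusted p = 0.325). Here too every pool library was taken as independent, so the p-values may be too small.

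The RNA of nos was higher in the heaviest pool than in free RNA at 72 h, by a fitted difference above that of 24 h. The call between the times depended on single libraries and on the scaling. At 72 h the libraries held 41.4 and 49.1 CPM of nos in the 4+ pool and 12.6 and 7.85 CPM in free RNA. All of the 4+ values lay above all of the free ones, and the 2-3 pool lay between them with 22.7 and 30.5 CPM. The 4+ against free difference was 2.15 (95% interval 0.90 to 3.40, SE 0.61, adjusted p = 0.00893), or 4.45-fold. At that time 26.6% of 10777 genes passed, 6.50% as higher in the 4+ pool, and the median of all genes was -0.29. The call was lost without free replicate 2 (1.83, adjusted p = 0.0901) and held with each of the other 3 libraries left out.

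At the earlier times the difference did not pass for nos. At 24 h it had 29.3 and 34.0 CPM in the 4+ pool and 73.0 and 35.2 CPM in free RNA (log2 -0.69, adjusted p = 0.567), when 6.48% of genes passed. At 48 h it had 20.1 and 14.7 CPM in the 4+ pool and 17.9 and 16.6 in free RNA (-0.01, 95% interval -1.24 to 1.21, adjusted p = 0.992), when 10.8% passed. The 4+ values lay below both free values at 24 h and on either side of them at 48 h. The change of the 4+ against free difference, 72 h against 24 h, was 2.84 (SE 0.80, adjusted p = 0.0300), a comparison in which 6.44% of genes passed and 0.603% as higher. With free replicate 2 of 24 h left out it passed (adjusted p = 0.0283), and with any of the other 7 libraries left out it did not (0.0615 to 0.192).

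As a share of the sum of the 6 pools' CPM, nos had 12.8 and 21.3% in the 4+ pool at 24 h, 18.4 and 15.2% at 48 h and 38.4 and 43.4% at 72 h in replicates 1 and 2. The median gene had 13.1 and 15.5% there at 72 h. Free RNA held 11.7 and 6.93% of nos at 72 h and 31.9 and 22.1% at 24 h. Each library was sequenced to its own depth, so these are shares of CPM and not of RNA molecules.

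The 4+ pool was also set against single ribosomes. At 72 h nos had 41.4 and 49.1 CPM in the 4+ pool and 13.2 and 11.3 in the 80S pool, a log2 difference of 1.88 (SE 0.58, adjusted p = 0.0491), while 6.58% of genes passed and 0.909% as higher. The groups did not overlap, but the call was lost with any of the 4 libraries left out (adjusted p 0.169 to 0.277) and with the replicate number as a block (1.88, adjusted p = 0.0506). At 24 h (0.74, adjusted p = 0.610) and 48 h (0.67, adjusted p = 0.709) it did not pass, beside 3.22 and 2.65% of all genes. Without replicate 2 of the 72 h 60S pool the 72 h difference was 1.90 (adjusted p = 0.00575), and the change of the 4+ against free difference had an adjusted p of 0.00309.

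For zpg neither 4+ against free nor 4+ against 80S passed at any of the 3 times, although at 72 h both replicates had their highest value in the 4+ pool. It had 40.2 and 30.9 CPM there at 72 h, and 8.34 and 16.2 in free RNA, without overlap (log2 1.61, 95% interval -0.26 to 3.48, adjusted p = 0.209). With scaling by total reads this became 2.62 (adjusted p = 0.0205), while the median of all genes became 0.69. At 24 h zpg had 16.8 and 34.9 CPM in the 4+ pool and 27.8 and 24.3 in free RNA (-0.11, adjusted p = 0.940). At 48 h it had 14.0 and 3.72 CPM in the 4+ pool and 4.57 and 13.7 in free RNA (-0.11, adjusted p = 0.965), so the replicates disagreed on which pool was richer. Against 80S the differences were 1.56, 0.58 and 1.55 at 24, 48 and 72 h (adjusted p = 0.457, 0.855 and 0.321). The change of the 4+ against free difference from 24 h to 72 h was 1.72 (adjusted p = 0.525).

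At 24 h stet was listed in free RNA and not in the heaviest pool. It was unlisted in both 4+ libraries, where the listing minimum of 10 reads equals 1.15 and 1.31 CPM, and had 3.72 and 7.36 CPM (23 and 37 reads) in free RNA. The 2-3 pool held 6.99 CPM in replicate 1, or 42.9% of that replicate's sum over pools, and was unlisted in replicate 2. The 40S pool held 3.47 and 10.4 CPM and the 80S pool 2.10 and 7.69. The fitted 4+ against free difference passed (adjusted p = 0.0324 by limma), with 5.38% of all genes lower. Its size rests on the 5 reads entered for the unlisted libraries. The call was lost with 10 reads entered (adjusted p = 0.0559), with scaling by total reads (0.0862) and with any 1 of the 4 libraries left out (0.0860 to 0.354). By 72 h the 4+ pool held 10.7 and 18.8 CPM and free RNA 8.55 and 10.2 (log2 0.62, 95% interval -1.14 to 2.38, adjusted p = 0.636). The highest pool at 72 h was 40S in both replicates, with 22.0 and 40.3 CPM, or 26.5 and 40.1% of the sum over pools. The change of the 4+ against free difference from 24 h to 72 h was 3.59 (SE 1.21, adjusted p = 0.0760). At 48 h stet had 4.03 and 2.68 CPM in the 4+ pool and was unlisted in both free libraries (adjusted p = 0.338), and against 80S it did not pass at 24, 48 or 72 h (adjusted p = 0.0917, 0.978 and 0.844). Without replicate 2 of the 72 h 60S pool the change (adjusted p = 0.0362) and the 24 h difference against 80S (0.0402) passed.

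**Figure D3:**
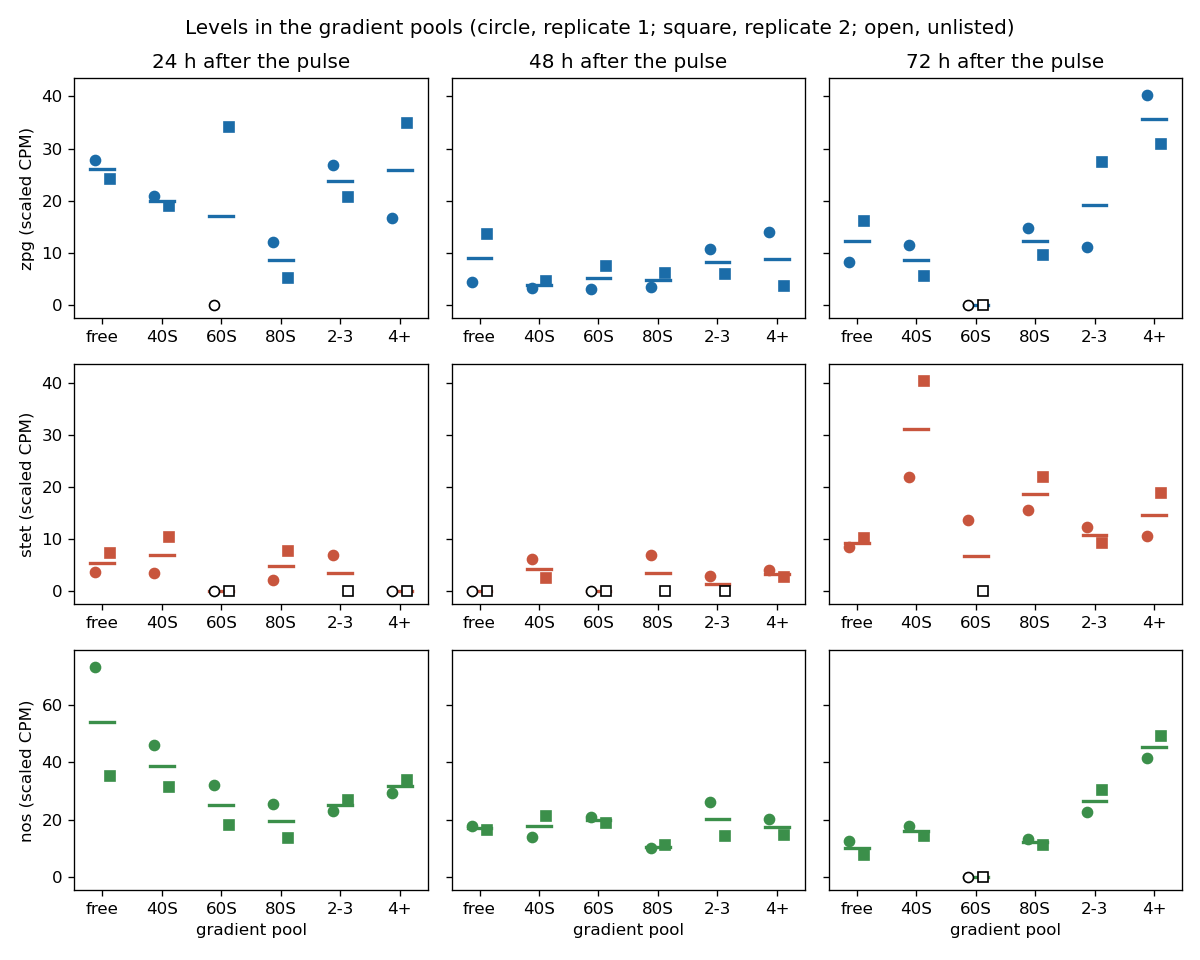
Scaled CPM (linear axis from 0, shared within a row) of zpg, stet and nos in the 6 gradient pools at 24, 48 and 72 h, each library as a point and the mean of 2 libraries as a bar; open points are unlisted libraries drawn at 0. In the bottom right panel nos lies at 41.4 and 49.1 CPM in the 4+ pool, above every other 72 h pool, and stet is unlisted in both 4+ libraries at 24 h.

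With scaling by total reads the direction of the whole table turned, since the median 4+ against free difference of all genes was -0.55, -0.22 and -0.29 at 24, 48 and 72 h by trimmed means and 0.23, 0.63 and 0.69 by total reads. The share of calls that were higher in the 4+ pool was 16.9, 19.2 and 24.4% by trimmed means and 76.5, 74.3 and 65.1% by total reads. Against 80S it was 8.93, 6.99 and 13.8%, and 59.5, 84.2 and 39.4% by total reads. For nos at 72 h the difference was 3.12 by total reads (adjusted p = 7.49e-04), and for zpg at 24 and 48 h and nos at 24 and 48 h its sign turned positive.

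Over the summed reads each gene had 1 dominant 3′ end, close to the end of its annotated 3′ UTR. Places are given as distance in nt after the last base of the stop codon, because lysate positions are not in dm6 coordinates, and as dm6 positions from the pool files. In dm6, zpg (FBgn0024177) lies on arm 3L from 6604366 to 6606032 on the minus strand, inside the span of Rexo5 on the other strand. Its main site lay at 318 nt (dm6 6604360), 6 nt past the annotated end, and held 96.4% of its reads in lysate and 89.4% in pools. In 8 of 12 lysate libraries and 22 of 33 pool libraries that listed zpg, no other site was listed. Minor sites lay at 231 nt (3 lysate libraries), at 484 to 489 nt (1 lysate and 5 pool libraries) and at 582 nt (1 and 4). The last 2 lie past the annotated 312 nt. No pair of zpg sites was listed often enough for its fits to be relied on, and none of them passed.

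The gene stet (FBgn0020248) lies on arm 3L from 1475438 to 1489547 on the minus strand, with Ptp61F ending downstream at 1475257 on the same strand. Its main site was at 734 nt in lysate and 741 nt in pools (dm6 1475432), where the annotated UTR is 735 nt long, with 77.4 and 74.8% of the reads. In pools this site was listed in 22 of the 24 libraries that listed stet, with 0 to 100% of a library's reads (median 80.2%). The next site, at 423 nt, held 21.1% of reads in lysate. Of the reads at both sites in lysate, the 423 nt site took 38.7 and 14.2% at 0 h, 37.7 and 38.0% at 48 h and 22.1 and 21.7% at 72 h. Each range at 48 h and 72 h lay within that of 0 h. The log2 ratio of proximal to distal reads changed by 0.86 at 48 h (95% interval -0.91 to 2.63, adjusted p = 0.448) and -0.26 at 72 h (adjusted p = 0.863), both against 0 h. In these comparisons 31.4 and 24.6% of the site pairs of all genes passed. At 32 h too few reads were left for a test.

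The gene nos (FBgn0002962) lies on arm 3R from 19157238 to 19160202 on the plus strand. It overlaps CG11779 and, at its 3′ end, Nsun5, both on the other strand, and the files give a strand for each key. The main site was at 883 nt (dm6 19160205), 3 nt past the annotated end, with 84.8% of its reads in lysate and 85.8% in pools, and it was listed in every library that listed nos. A second site lay at 85 nt (dm6 19159407), inside the 3′ UTR, with 11.3% of reads in lysate (8 of 12 libraries) and 8.78% in pools (15 of 34). An RNA that ends there would lack most of the 3′ UTR. Whether tags at this site come from a true RNA end or from priming inside the RNA was not tested. Further sites near 462 nt (9 pool libraries, 1 lysate library) and at 233 nt (2 lysate libraries) held up to 3.40% of reads.

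**Figure D4:**
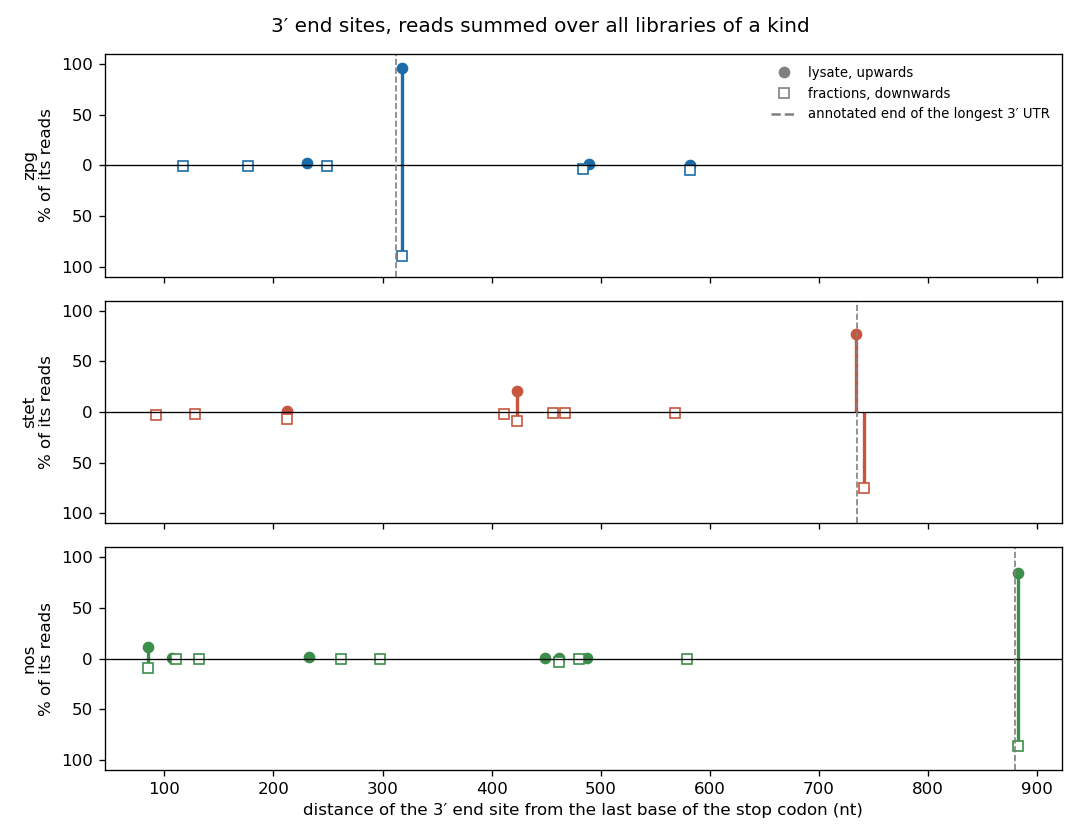
Distance of each 3′ end site from the stop codon (nt) and the percent of the gene's reads it held, lysate upwards (filled circles, 12 libraries) and pools downwards (open squares, 36 libraries), with the annotated UTR end as a dashed line. The tallest sites stand at 318 nt for zpg, 734 and 741 nt for stet and 883 nt for nos, and nos has a second site at 85 nt.

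For the use of this end, sites within 50 nt of the 85 nt site were joined with it and are called proximal. The reads lay at 85 nt itself in every library that listed a proximal site, except 1 lysate library of 32 h (107 nt), the 80S pool of 24 h in replicate 1 (111 nt) and the 4+ pool of 48 h in replicate 1 (132 nt). The proximal share did not pass a test against 0 h in lysate and varied between replicates. Of reads at the proximal and main sites in lysate, proximal sites took 31.8 and 11.3% at 0 h, 26.6% and unlisted at 16 h, unlisted in both at 24 h, 11.2% (at 107 nt) and 14.9% at 32 h, 20.5 and 29.6% at 48 h and 7.06 and 11.4% at 72 h. At 24 h the listing minimum allows at most 3.56 and 4.87%. The 0 h replicates lay farther apart than their counting error, with exact 95% intervals of 26.6 to 37.4% and 8.25 to 15.1%, which cover counting error only. The change in log2 ratio against 0 h was -0.80 at 32 h (adjusted p = 0.662, beside 8.33% of pairs that passed), 0.38 at 48 h (0.790) and -1.39 at 72 h (0.364).

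In the pools the proximal share of nos had no single order over the 3 times. At 24 h it was unlisted in both 4+ libraries and in both 40S libraries, where at most 3.63 and 4.46% could go unseen, and it took 8.98% (at 111 nt) and 22.99% in the 80S pool. At 48 h the 4+ pool listed no 85 nt site in either library, and replicate 1 had 15 of its 125 reads at 132 nt. At that time it took 44.2 and 46.7% in the 80S pool, 54.3 and 28.3% in the 40S pool, 43.2% and unlisted in the 2-3 pool and 30.4% and unlisted in free RNA. In the 48 h 60S pool it took 26 of 65 reads in replicate 1 and was unlisted in replicate 2. At 72 h it took 5.17 and 3.66% in the 4+ pool (exact 95% intervals 2.70 to 8.86% and 2.02 to 6.07%), 49.3 and 39.3% in the 40S pool (37.2 to 61.4% and 27.1 to 52.7%) and 27.4% in free replicate 1. It was unlisted in free replicate 2, where 30 reads stood at the pair and up to 23.1% could go unseen. The 80S pool had 20.6% and unlisted, and the 2-3 pool was unlisted in both libraries, which allows up to 9.28 and 8.04%. The 4+ against free change in log2 ratio at 72 h was -2.69 (95% interval -4.84 to -0.54, adjusted p = 0.152 by limma), beside 5.13% of pairs that passed, so it failed the adjustment. At 24 h (5.89% of pairs passed) and 48 h (1.94%) the proximal sites were listed in too few libraries for the fit of nos to be relied on. Neither fit passed. The 40S and 80S pools were not tested for site choice.

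**Figure D5:**
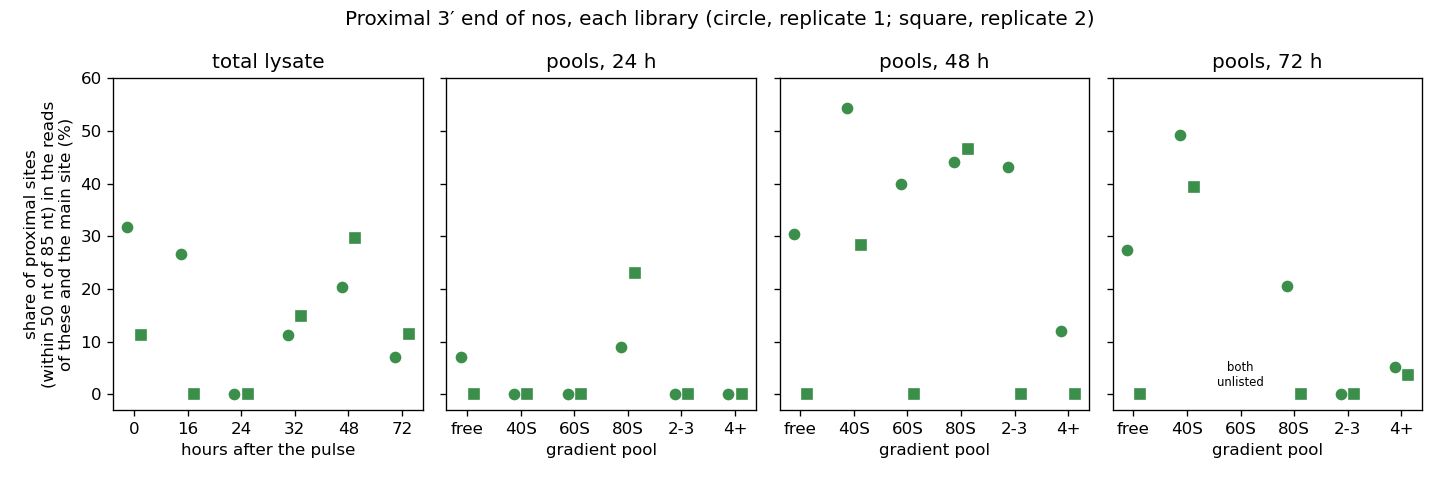
Share of proximal sites (within 50 nt of 85 nt) in the reads of these and the main site of nos (percent), each library as a point, in lysate by hours after the pulse and in the pools at 24, 48 and 72 h; a point at 0 means that no proximal site was listed. At 72 h the 40S libraries lie at 49.3 and 39.3% and the 4+ libraries at 5.17 and 3.66%.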

How the data were processed

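RNA 3′ ends were sequenced from 48 libraries with a 3′ tag kit (QuantSeq 3′ FWD, per the labels' protocols). The authors aligned reads with Bowtie 0.12.8, and the submitters' processing notes name dm6. Each deposited file gives, for a stop codon, its sites with read counts packed in a text column. Deposited lysate files list no count under 20 and pool files none under 10. Of lysate keys on the plus and minus strands, 24.1 and 23.1% lay within 3 nt of an annotated dm6 stop codon, so no dm6 position was taken from lysate. In pool files 99.9% of plus-strand keys did, and minus-strand keys lie elsewhere (0.132%), so minus-strand sites were measured from the annotated stop. For reads primed at A-rich stretches, the handling is not stated in the labels.

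Reads were summed per gene in Python 3.11.15. Entries naming several genes (at most 0.0428% of a library) were left out. Unlisted values entered at 10 reads in lysate and 5 in pools. Genes that both libraries of some group listed were fitted with limma 3.58.1 in R 4.3.3 (voom, robust moderated statistics), all 12 lysate or all 36 pool libraries sharing the spread, with scaling factors of 0.724 to 1.30 and 0.514 to 2.83. The read counts came packed with positions in a text column, and limma was used on the unpacked sums with no count model. Benjamini-Hochberg adjusted p under 0.05 counted as passed, over all genes tested. For site choice, sites within 50 nt were joined across libraries, and log2(proximal/distal) of the most used pair was tested where the pair had at least 3 listing minimums of reads. A member's test is given where each site was listed in at least 3 of the 4 libraries compared, a limit set after the values were seen. Tests were tried on simulated reads. Intervals cover counting error or the spread of 2 libraries.

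The 3 genes and the 10 gene lists were chosen with earlier results of these data known. Named list genes are those past the threshold at 32 h or 72 h against 0 h, up to 6 per list by size. Named outside this rule, after their values were seen, were spi and pum, for their role, and Adh. The pairing of replicate numbers was checked by the correlation of deviations from group means, which was above 0.1 in 3 of 15 pairs of lysate groups and 29 of 153 pairs of pool groups, so the numbers were not treated as pairing samples. Pools of the same time, which may share a gradient within a replicate, were not checked apart from the rest. Alternatives covered scaling, filters, the value of unlisted entries, a replicate block shared by all times and each library left out.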

Additional observations from a re-analysis of the deposited data

Results flagged for a closer look

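The change of the 4+ against free difference of nos, 72 h against 24 h, drew attention because the test of the difference between the times itself passed, at log2 2.84 (95% interval 1.20 to 4.49, adjusted p = 0.0300 by limma). At 72 h both 4+ libraries lay above both free libraries (41.4 and 49.1 CPM in the 4+ pool, 12.6 and 7.85 in free RNA). At 24 h both lay below both free libraries (29.3 and 34.0 CPM in the 4+ pool, 73.0 and 35.2 in free RNA). The call is close to the threshold and passed in 1 of 8 fits with 1 library left out. Free replicate 1 of 24 h is the highest nos value in the series, and without it the change was 2.31 (adjusted p = 0.192).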

How the results depend on the processing

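With 2 libraries a group, the fits borrow the spread from other groups, and unlisted values hide levels under 20 reads in lysate and 10 in pools, which touches stet most. Of 732 values of the 3 genes under other settings, 643 kept their direction and side of the threshold, 38 lost the threshold, 14 gained it and 37 turned sign. Unless a cause is named, the cause was not tested.

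With scaling by total reads, genes called against 0 h in lysate numbered 330 at 16 h, 496 at 24 h and 2513 at 32 h, nos was 0.46 at 24 h and 0.19 at 48 h, and zpg at 72 h against 32 h was 1.083 and no longer passed. In the pools it gave, for 4+ against free, 1491 calls at 24 h and 2383 at 48 h, zpg values of 0.66, 0.73 and 2.62 at 24, 48 and 72 h (the last now passed), stet -2.20 at 24 h (lost) and nos 0.086 and 0.83 at 24 and 48 h. Against 80S it gave 697 calls at 24 h and 1275 at 48 h, and the 72 h against 24 h change of stet became 3.82 and passed. With CG18628 left out of the library sizes, nos at 24 h was 0.088 and zpg at 72 h against 32 h was 1.02 (lost). With median-of-ratios scaling, 4+ against free was 0.20 and 0.026 for zpg at 24 and 48 h, -2.66 for stet at 24 h (lost) and 0.12 for nos at 48 h, nos against 80S at 72 h was 1.80 (lost), its 72 h against 24 h change 2.48 (lost), and stet over the pools at 48 h against 24 h 0.065.

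Without a filter nos against 80S at 72 h was 1.88 (lost). With genes listed in at least 0.5 of the libraries, stet in lysate passed at 24 h (-2.30) and 48 h (-1.21), zpg at 72 h against 32 h was lost (1.51), calls numbered 3046 at 72 h against 0 h and 2033 against 32 h, since fewer genes were tested, and in the pools stet at 24 h (-2.97) and the change of nos (2.84) were lost, with 124 calls for that change. With unlisted values at 1 read, 157 genes were called at 16 h, zpg at 72 h against 32 h (1.52), nos against 80S (1.88) and the change of nos (2.84) were lost, with 192 calls for that change, and nos over the pools passed at 72 h against 48 h (-0.65). With unlisted values at the listing minimum, stet passed at 24 h (-2.31) and 48 h (-1.21) in lysate, its 4+ against free value at 24 h was -2.06 (lost), its 4+ against 80S value at 48 h -0.33 and its pool mean at 48 h against 24 h 0.0058, and zpg over the pools passed at 72 h against 48 h (1.05).

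The replicate numbers were not treated as pairing the samples, and pairing of pools within a gradient was not tested. With the replicate block 48 genes were called at 16 h and 105 at 24 h, nos against 80S at 72 h was 1.88 (adjusted p = 0.0506), and no other call of the 3 genes changed. Fitted on the compared groups alone, with fewer samples to set the spread, limma called 0 genes at 16 h and 0 at 24 h (345 and 632 at an unadjusted p under 0.05), 94 at 32 h, 2729 at 48 h and 5806 at 72 h against 32 h, and zpg (-3.16) and stet (-3.47) at 32 h were lost.

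With 1 library left out, the lone sample is assumed to vary like the other groups. Ranges in lysate against 0 h were, for genes called, 24 to 1757 at 16 h, 21 to 2453 at 24 h and 402 to 3297 at 32 h. For zpg they were -1.95 to -1.25 at 24 h, -2.01 to -1.31 at 72 h and 1.28 to 1.68 at 72 h against 32 h. For stet they were -2.61 to -1.99 at 24 h, -1.52 to -0.90 at 48 h and -0.54 to 0.085 at 72 h. For nos they were -0.88 to 0.034 at 16 h and -0.35 to 0.33 at 24 h. For 4+ against free, calls ran from 180 to 488, 321 to 1021 and 1589 to 2212 at 24, 48 and 72 h, zpg from -0.63 to 0.53 at 24 h and -1.01 to 0.86 at 48 h, stet from -3.46 to -2.45 at 24 h, and nos from -0.20 to 0.22 at 48 h and 1.83 to 2.50 at 72 h. Against 80S, calls ran from 148 to 296, 90 to 124 and 155 to 318, zpg from -0.33 to 1.53 at 48 h, stet from -3.52 to -1.69 at 24 h, -1.05 to 1.33 at 48 h and -0.78 to 0.071 at 72 h, and nos from 1.74 to 2.05 at 72 h. For the 72 h against 24 h change, calls ran from 212 to 656, nos from 2.31 to 3.33 and stet from 3.08 to 4.08, and stet over the pools at 48 h against 24 h from -0.29 to 0.18. Without replicate 2 of the 72 h 60S pool, the shallowest library, calls numbered 1704, 2329 and 4201 for 4+ against free and 1242, 863 and 2249 against 80S at 24, 48 and 72 h, and 1540 for the change, and stet passed against 80S at 24 h (-2.60) and in the change (3.58).

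For site choice in lysate the log2 ratio ran from -1.65 to 0.21 at 32 h and -0.47 to 1.39 at 48 h for nos, and from -0.054 to 1.88 at 48 h and -1.17 to 0.77 at 72 h for stet. Site pairs called ran from 76 to 785 at 32 h and 620 to 1081 at 72 h in lysate, and from 77 to 301, 5 to 79 and 28 to 125 at 24, 48 and 72 h for 4+ against free.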
